A study of Canis lupus familiaris with 45 samples.

Results

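The skeletal muscle genes followed here encode the contractile apparatus of striated muscle, its calcium handling and its energy supply. They were fixed as a list of 35 symbols, and every probe set of the array annotated to one of them was taken, over all 45 arrays. The array carried 34 of the 35 genes on 102 of its 42924 probe sets, and only CKM, the muscle creatine kinase, had no probe set. A gene was called expressed by fat itself when the median of its brightest probe set was above log2 4 on arrays without muscle transcripts. Such arrays were those on which TNNI2, TNNC2 and MYL1, all genes of fast muscle fibres, were below log2 6. The brightest probe set is the one with the highest mean over the 45 arrays.

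The tissue was subcutaneous fat of 9 intact female beagles, 4 years old and all on the same commercial diet, and was taken from fasted dogs at weeks 0, 4, 8, 12 and 24. The 4 control dogs (dogs 1, 3, 4 and 9) were given the amount of food that held their body weight. The 5 ad libitum dogs (dogs 2, 5, 6, 7 and 8) were allowed to eat freely, with week 0 as the baseline. Dogs had been assigned to the regimes at random. Each dog and week gave 1 array, so a group is a feeding regime at a week (n = 4 or 5).

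Skeletal muscle fibres contract when calcium released from the sarcoplasmic reticulum binds troponin on the thin filament and frees actin for myosin of the thick filament. Fast fibres use one set of myosin, troponin and calcium pump genes and rely on glycolysis, whereas slow fibres use another set and hold more myoglobin. Fat cells are not known to build sarcomeres, but some genes named for muscle, among them CA3, are also active in fat.

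The deposited values were GCRMA expression values read as log2, and array medians ran from 3.60 to 3.83. Adipocyte genes were high on all arrays. ADIPOQ, the fat hormone adiponectin, ran from 14.72 to 15.96 on the 34 arrays without muscle transcripts and from 14.75 to 15.80 on the 11 arrays with them. FABP4, the fatty acid carrier of adipocytes, ran from 15.35 to 16.08 and from 15.49 to 16.09. Of the 45 arrays, 43 matched their labelled dog best on the 100 probe sets that separated the dogs best. At week 8, the array with the label control dog 9 was closest to dog 5 (r = 0.80, against -0.16 with its own dog), and that with the label ad libitum dog 5 was closest to dog 9 (r = 0.91, against -0.23). Neither of these 2 arrays had muscle transcripts. Labels were kept as deposited, and results that change without them are given both ways.

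By the rule, muscle transcripts were present on 11 of the 45 arrays, and the other 34 held at most lower levels of them. TNNI2, the inhibitory troponin subunit of fast fibres, had a lowest value of 1.86, a median of 1.93 and a highest value of 2.86 on the 34 arrays. On the 11 arrays its lowest value was 7.42, its median 14.92 and its highest 15.67. TNNC2, the calcium-binding troponin subunit of fast fibres, ran from 2.30 to 4.59 (median 2.38) on the 34 arrays and from 7.07 to 15.88 (median 14.79) on the 11. The 2 sets of arrays did not overlap in any of the 3 genes of the rule, and no value of these genes lay between 4.59 and 7.07. Since these genes chose the arrays, the gap is a description and was not tested.

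The level of muscle transcripts differed widely among the 11 arrays. The faintest was ad libitum dog 7 at week 24, with TNNI2 at 7.42, followed by the same dog at week 12 at 10.73, ad libitum dog 8 at week 0 at 11.67 and control dog 4 at week 24 at 12.77. Ad libitum dog 7 at week 8 stood at 14.26, ad libitum dog 5 at week 0 at 14.92 and control dog 3 at week 24 at 15.19. The 4 remaining arrays were nearly alike in TNNI2: control dogs 1 and 3 at week 0 both stood at 15.50, control dog 4 at week 8 at 15.55 and ad libitum dog 7 at week 0 at 15.67. Their members differed more, lying above their own medians on the arrays without muscle by a median of 7.75, 9.95, 9.42 and 9.24, in that order. In bulk tissue, fewer cells of a type and less RNA per cell cannot be told apart.

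These arrays were spread over both regimes but not evenly over dogs or weeks. Of the 25 ad libitum arrays 6 had muscle transcripts, and of the 20 control arrays 5 had them. Dog 7 accounted for 4 of the 11 (weeks 0, 8, 12 and 24), dogs 3 and 4 for 2 each and dogs 1, 5 and 8 for 1 each. Dogs 2, 6 and 9 had none. By week, 5 of 9 arrays had muscle transcripts at week 0, 0 of 9 at week 4, 2 of 9 at week 8, 1 of 9 at week 12 and 3 of 9 at week 24. All batches of the labels but batch 5 held at least 1 such array.

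**Figure D1:**
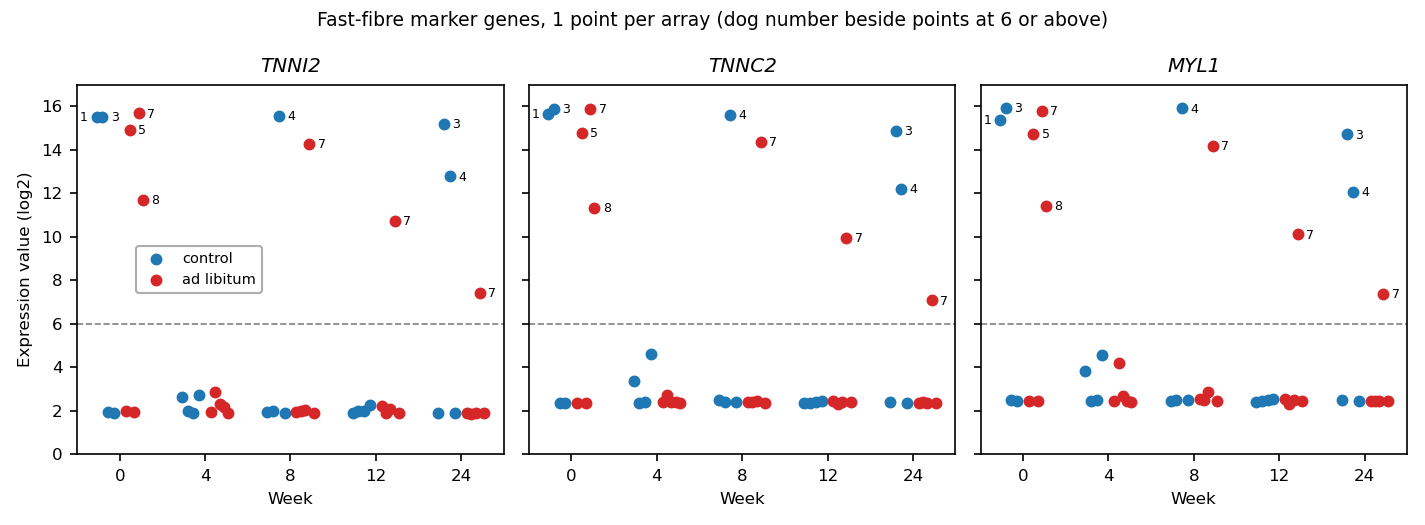
Expression values (log2, vertical axis) of TNNI2, TNNC2 and MYL1 by week (horizontal axis), with control arrays in blue and ad libitum arrays in red, 1 point per array and the dog's number beside points at 6 or above (dashed line). The 11 arrays with muscle transcripts lie at 7.07 or above and the other 34 at 4.59 or below, and week 4 has none above the line.

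Traces below the rule were seen on 3 further arrays, all at week 4. Control dog 9 had TNNC2 at 4.59 and MYL1 at 4.57, control dog 1 had TNNC2 at 3.38 and MYL1 at 3.81, and ad libitum dog 5 had MYL1 at 4.17. MYL1, an essential light chain of fast myosin, had a median of 2.46 on the 34 arrays. One probe set of the muscle actin ACTA1, with a median of 2.16 on the 34, read higher, at 7.29, 7.52 and 6.30 on these 3 arrays in that order. Its next highest value on the 34 was 3.65, on ad libitum dog 6 at week 4, and its lowest on the 11 was 10.45. Among the 23 genes classed as seen with muscle only, 3 were above log2 4 on the control dog 9 array and 1 on the ad libitum dog 5 array. A further one was MYOZ1 on the week-4 array of control dog 4, at 4.67, where TNNI2, TNNC2 and MYL1 were at background.

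Of the 34 genes, 11 had a median above log2 4 on the 34 arrays without muscle, and the other 23 were classed as seen with muscle only. RYR1 was counted with the 23, although its only probe set was never above 2.45 on any array. The 11 were CA3, ACTA1, ASB2, MYBPC1, ATP2A1, MB, ENO3, MYOM1, TTN, TRDN and TCAP. The last 3 lay just inside the limit, with medians of 4.73, 4.57 and 4.33, and COX6A2, CASQ1 and SMPX just outside it, at 3.60, 3.40 and 3.39. In 5 of the 11, all probe sets but the brightest had medians at or below log2 4 on the 34 arrays. TRDN was among these 5, with 1 of 9 probe sets above the limit, and so was CA3, with 1 of 3. Of the 102 probe sets, 83 passed the filter used for testing, a value above log2 4 on at least 4 arrays. Only 15 of these 83 would have passed on the 34 arrays, so 68 were tested because of the arrays with muscle transcripts.

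Among the thick filament genes, all 5 members were higher on the arrays with muscle, as were the 5 of the thin filament. MYH2, the myosin heavy chain of fast oxidative fibres, ran from 3.00 to 3.84 (median 3.19) on the 34 arrays and from 7.09 to 15.76 (median 14.45) on the 11. MYH1, a heavy chain of faster fibres, had medians of 3.16 and 12.78. The heavy chain genes are close copies, so a probe set of one may also bind another. MYLPF, the regulatory light chain of fast myosin, had medians of 2.65 and 13.17, and overlapped only by its faintest array (4.22, against a highest value of 4.26 without muscle).

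TNNT3, the tropomyosin-binding troponin of fast fibres, had a median of 2.53 on the 34 arrays and 12.46 on the 11, with no overlap. NEB, which encodes the thin-filament ruler nebulin, had medians of 2.60 and 9.40. On 3 of the 11 arrays the brightest NEB probe set stayed at or below log2 4.

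The actin gene ACTA1 depended on the probe set. Its brightest probe set had a median of 10.27 on the 34 arrays and 17.17 on the 11. The other 2 ACTA1 probe sets had medians of 2.16 and 3.35 on the 34 arrays and 15.78 and 12.16 on the 11. On the 34 arrays the brightest probe set followed ACTA2, the actin of smooth muscle (Pearson r = 0.88, Spearman rho = 0.88, n = 34 arrays of 9 dogs that share the normalization). A further probe set, annotated to both ACTA1 and ACTA2, was left out. How much of the 10.27 is ACTA1 was not tested.

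Genes of the Z-disc and the M-band, which anchor and align the filaments, were seen mainly on the brighter arrays. The 12 members had a median rise of 5.87 over their own medians on the 34 arrays, against 10.52 for the thick filament and 9.93 for the thin filament. On the faintest array the median rises of these 3 groups were -0.02, 3.32 and 1.25, and on the ad libitum dog 7 array of week 0 they were 9.78, 12.76 and 12.33. MYOZ1, a calcineurin-binding Z-disc protein of fast fibres, was above log2 4 on all 11 arrays (4.06 to 14.97). ACTN3, the fast-fibre alpha-actinin, was above 4 on 9, with a median of 12.49 against 3.32 on the 34. LDB3, which stabilises the Z-disc, was above 4 on 7, with a highest value of 11.22.

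The giant protein titin, encoded by TTN, was covered by 20 probe sets that did not behave alike. Its brightest one stood at 4.73 without muscle and at a median of 5.88 with it, reaching 12.37. Another of the 20 had medians of 2.14 and 13.87 with no overlap, and one never passed log2 4. TTN was thus classed as expressed by fat on 1 of 20 probe sets. MYOM2, an M-band protein of fast fibres, gave 10 probe sets, of which 1 never passed log2 4 and the brightest had medians of 2.38 and 8.83.

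At their brightest probe sets, calcium handling genes had the smallest median rise of the member groups, 1.73 over 5 genes. That value was the rise of TRDN and depended on the probe set. Another of its 9 probe sets had medians of 2.22 on the 34 arrays and 8.00 on the 11. CASQ1, the calcium store protein of fast fibres, had medians of 3.40 and 7.42, and CACNG1, a subunit of the muscle calcium channel, 2.22 and 5.34. RYR1, the calcium release channel, was never above 2.45 on any of the 45 arrays with its only probe set, which says nothing of whether its RNA was present. ATP2A1, the calcium pump of fast fibres, again depended on the probe set. Its brightest had medians of 8.18 on the 34 arrays and 8.10 on the 11, whereas the other 2 had 2.49 and 2.34 on the 34 and 12.54 and 11.80 on the 11.

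Energy genes were mixed between the classes. ENO3, the muscle enolase of glycolysis, had a median of 6.89 (4.45 to 8.17) on the 34 arrays and 13.27 (7.24 to 15.97) on the 11. PGAM2, the muscle phosphoglycerate mutase, was at background without muscle (highest value 2.90) and reached 13.43 with it. COX6A2, a heart and muscle subunit of cytochrome c oxidase, was above log2 4 on 7 of the 11 arrays. CA3, a carbonic anhydrase abundant in slow fibres and in fat, had medians of 12.46 and 13.73 and ranges that overlapped (8.35 to 14.80 and 11.34 to 14.73). MB, the oxygen store myoglobin, had medians of 7.60 and 12.42.

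Both ubiquitin ligase adaptors of the list were measured. KLHL41, which stabilises nebulin, had medians of 2.59 and 11.86. ASB2, which targets filamins for degradation, was at 9.61 (4.11 to 12.34) without muscle and 10.03 (7.75 to 12.17) with it.

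Over all 22690 probe sets tested, 0.0793% (18) had their lowest value on the 11 arrays above their highest on the 34, and 14 of the 18 were members. Of the other 4, one had no symbol and 3 belonged to CKMT2, CMYA5 and TNNC1. The members were named for muscle and 3 of them chose the arrays, so this count is no support. The median difference between the 2 sets of arrays was -0.03 over all tested probe sets and 5.14 over the 83 of the members.

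**Figure D2:**
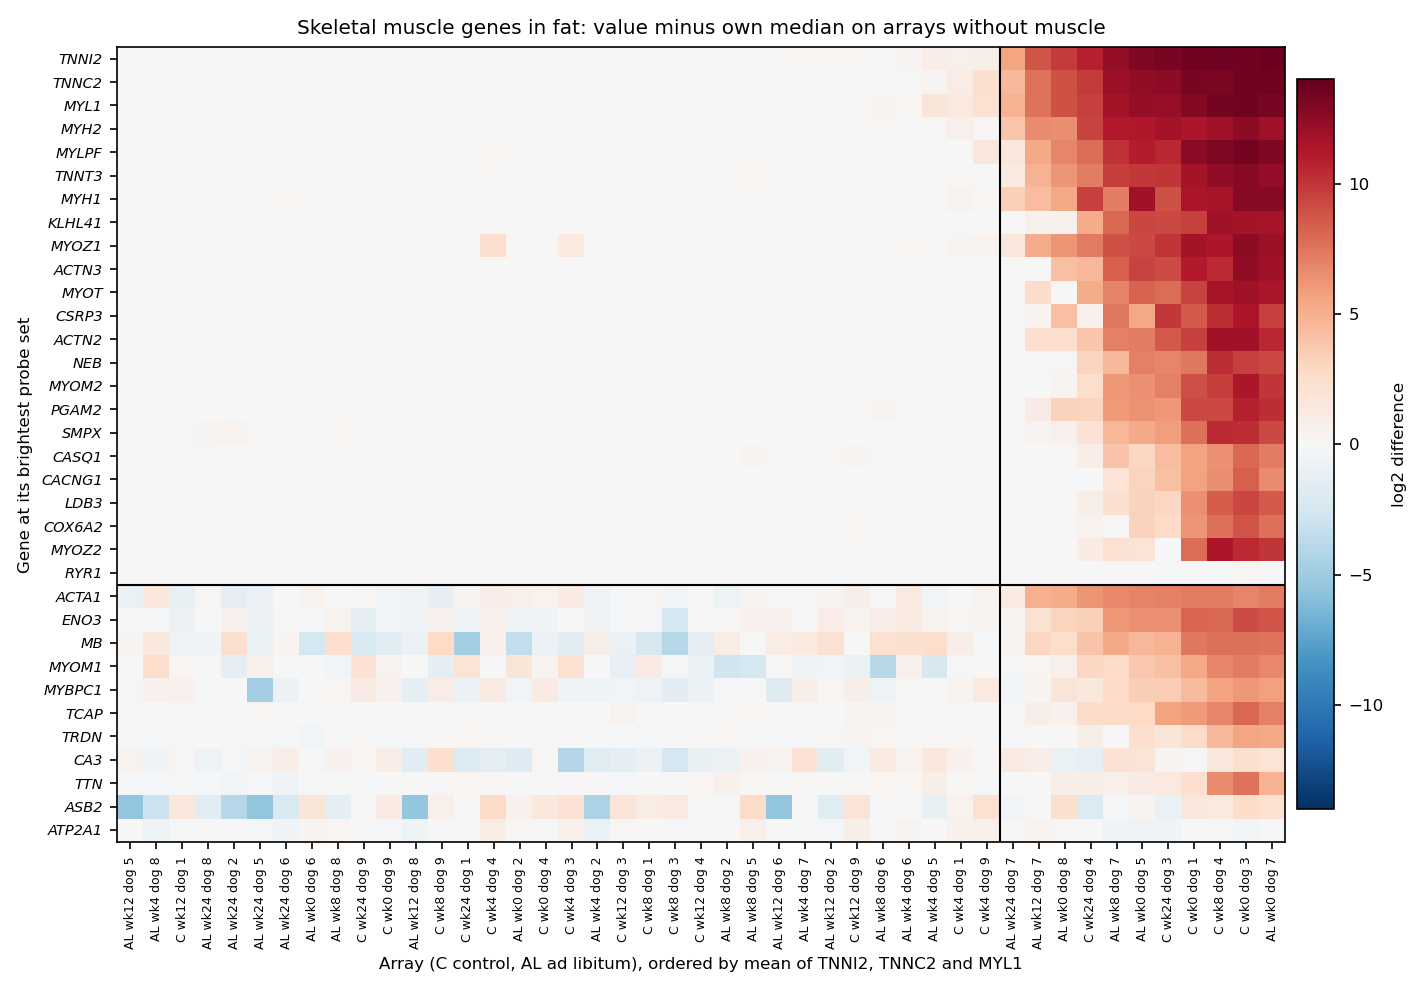
Value of each of the 34 genes (rows, brightest probe set) on each of the 45 arrays (columns, ordered by the mean of TNNI2, TNNC2 and MYL1) minus the gene's own median on the 34 arrays without muscle transcripts, in log2 (red higher, blue lower). The vertical line separates the 34 from the 11 arrays. The horizontal line separates the 23 genes classed as seen with muscle only (above) from the 11 that fat expresses (below). RYR1 is among the 23, although it was never above 2.45. More genes turn red as the mean of TNNI2, TNNC2 and MYL1 increases, and ASB2 has its lowest values to the left of the line.

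How many members were up by more than 1 was larger on arrays with more TNNI2. On the faintest array 10 of the 34 genes exceeded their own median by more than 1, namely ACTA1, TNNI2, TNNC2, MYL1, MYH2, CA3, MYH1, MYLPF, TNNT3 and MYOZ1. The count was 14 and 17 on the next 2 arrays and 23 on the control dog 4 array of week 24. It was 28 to 32 on the 7 brightest arrays. Members that fat expresses can pass 1 without muscle: CA3 was up by as much as 2.34, ASB2 by 2.73 and MB by 2.77 on such arrays. The share of all probe sets up by more than 1 is not given, so these counts are a description. On the control dog 3 array of week 0, 30 members were up by more than 5, as were 1.54% of all tested probe sets, and on the faintest array 1 member was, as were 0.022%.

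Fast and slow fibre genes separated on 1 array. Levels of different probe sets cannot be set against each other, so each gene's rise over its own median without muscle was used, for the genes seen with muscle only: 10 fast-fibre members, and 6 slow-fibre genes of which 2 are members. On the control dog 3 array of week 24, the fast genes were up by a median of 10.28 and all 10 by more than 1, whereas 1 of 6 slow genes was. The slow ones on that array were MYL2 (2.21), TNNT1 (2.43), MYL3 (3.15), MYH7 (3.48) and MYOZ2 (2.16), each at its background.

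MYL2 and MYL3 are light chains, TNNT1 a troponin and MYH7 the heavy chain of slow fibres, and MYOZ2 is a slow-fibre Z-disc protein. The exception was CSRP3, a stretch-related Z-disc protein counted with slow fibres, which was up by 9.92 there. TNNC1, the slow and cardiac troponin C, is expressed by fat (median 4.40) and was up by 2.42.

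On other arrays of like TNNI2 level the slow genes were present. Ad libitum dog 5 at week 0 (TNNI2 14.92) had MYL2 up by 6.35, TNNT1 by 6.92 and MYH7 by 4.40, and all 6 slow genes were up by more than 1. On the 4 brightest arrays the median rise of the slow genes was 10.07 to 12.10, within 0.09 to 1.55 of that of the fast genes. On the ad libitum dog 7 array of week 12, at a far lower TNNI2 of 10.73, MYL2 was up by 7.76 and TNNT1 by 6.31 while ACTN3 was at its own median. Fast and slow genes thus did not keep 1 ratio over the 11 arrays. Each array is 1 sample, so these differences have no replicate and were not tested.

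**Figure D3:**
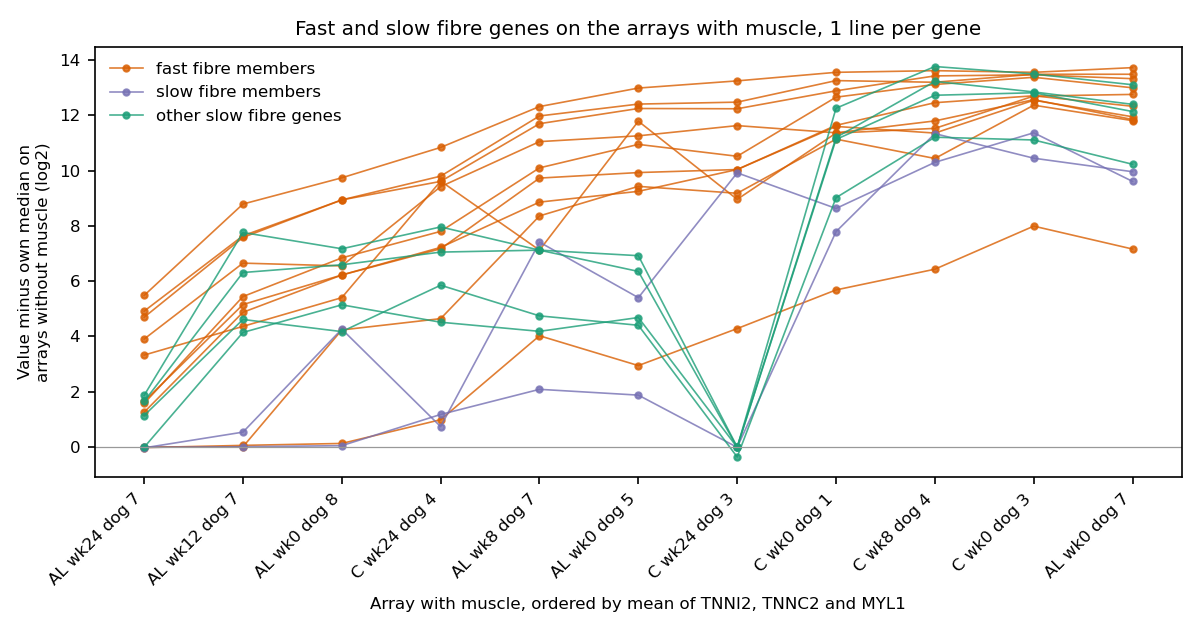
Rise of each fibre gene over its own median on the 34 arrays without muscle (vertical axis, log2) on the 11 arrays with muscle transcripts (horizontal axis, ordered by the mean of TNNI2, TNNC2 and MYL1), 1 line per gene, with fast-fibre members in orange, slow-fibre members in purple and other slow-fibre genes in green. On the control dog 3 array of week 24 the green lines and MYOZ2 fall to 0 while the orange lines and CSRP3 stay high.

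The genes whose values were most like the mean of TNNI2, TNNC2 and MYL1 over the 45 arrays were members or other fibre genes. Of 15115 genes, 16 members and 10 other genes had a Pearson r above 0.9, the 16 including TNNI2, TNNC2 and MYL1 themselves, over arrays that share dogs and are dominated by the 11 with muscle. The 15 closest non-members were CMYA5, PYGM, MYBPC2, LMOD2, TNNC1, UCP3, NRAP, TNNT1, AMPD1, TMOD4, MYL2, MYH3, MYLK2, TUBA4A and MYPN (r from 0.96 to 0.89). PYGM, the muscle glycogen phosphorylase, went from a median of 2.54 to 10.27, and AMPD1, the muscle AMP deaminase, from 2.15 to 8.99. UCP3, a mitochondrial carrier of muscle, went from 4.18 to 9.11. TUBA4A, a tubulin, was the one with a high level without muscle (8.28).

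Markers of other cell types overlapped between the 2 sets of arrays. The mean of 8 smooth muscle genes ran from 8.16 to 11.27 on the 34 arrays and from 8.85 to 11.15 on the 11. The mean of 12 adipocyte genes ran from 11.22 to 13.58 and from 11.09 to 13.27, and that of 4 endothelial genes from 10.26 to 10.99 and from 9.84 to 10.58. The mean of 4 macrophage genes ran from 7.37 to 10.39 and from 7.55 to 9.61. Means of the heart, nerve and skin genes overlapped too. The median was higher on the 11 arrays for 1 of 12 adipocyte, 1 of 4 endothelial, 2 of 8 smooth muscle and 2 of 4 macrophage genes. The lowest adipocyte mean, 11.09, was on the control dog 3 array of week 24. The difference between the 3' and 5' ends of actin, a measure of RNA quality that grows with degradation, had medians of 2.23 (1.35 to 5.53) and 3.12 (1.43 to 5.86). Its part in the level of muscle transcripts was not tested. Of the muscle regulators, MYOD1, MYF5, MYOG, PAX7 and MEF2D were never above log2 4, whereas MYF6 passed it on 4 of the 11 arrays, reaching 9.49. MEF2C had medians of 7.94 on the 34 arrays and 9.40 on the 11, with overlap, and TEAD1 had 4.12 and 4.09.

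Feeding was compared with limma over all 22690 probe sets at each week. None of the 83 member probe sets passed an adjusted p of 0.05 at week 0, 4, 8, 12 or 24, where 0%, 0.0132%, 1.42%, 0.00441% and 5.46% of all probe sets did. At an unadjusted p under 0.05 the counts were 1, 4, 1, 3 and 4 of 83, against 1.38%, 9.08%, 25%, 11.1% and 22.7% of all probe sets. For the feeding effect averaged over weeks 4 to 24, less the difference at week 0, 0 members passed, as did 0% of all probe sets. An unadjusted p under 0.05 was found for 4 of the 83, against 4.23% of all. At week 4 all control arrays were of batches 1 and 2 and all ad libitum arrays of batches 3 to 5, so regime and batch cannot be told apart within that week. The fitted member median there was 2.18, whereas the difference of the plain group means, with no batch term, had a member median of -0.01, and no week-4 array passed the rule for muscle transcripts. The plain member medians were -0.94, -1.16, 0.01 and -2.01 at weeks 0, 8, 12 and 24, against -0.01 to 0.07 for all probe sets at the 5 weeks. Leaving out dog 7 gave 1 call at week 8 and 2 at week 12. Leaving out the 2 week-8 arrays that go against their labels gave 2 at week 12. The shares of all probe sets called in these fits are not given. Without the 11 arrays, 0 of the 15 member probe sets tested passed at any of the 5 weeks. Of all 22098 probe sets, 0%, 0.0226%, 5.52%, 0% and 0.113% were called. At an unadjusted p under 0.05 there were 0, 5, 4, 3 and 8 of the 15, against 1.13%, 9.81%, 24.7%, 12.3% and 12.1% of all. The averaged effect then gave 0 of 15, with 0.00453% of all called. At an unadjusted p under 0.05 there were 3 of the 15, against 3.61% of all.

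ASB2 had the smallest p of the members at weeks 4 and 12. At week 4 its values were 10.10, 11.61, 11.76 and 12.34 in the control dogs and 5.14, 6.58, 8.60, 9.53 and 9.71 in the ad libitum dogs. The 2 regimes did not overlap, and the difference of -3.51 (SE 1.20) had an adjusted p of 0.378, or 0.04998 with no batch term. The regimes shared no batch at week 4, and they also separated in the actin end difference, at 2.76 to 3.39 in the control and 1.40 to 2.04 in the ad libitum dogs. With that value as a covariate the ASB2 difference was -3.55 (adjusted p = 0.354). At week 12 the control dogs stood at 9.49, 11.11, 11.39 and 11.44 and the ad libitum dogs at 4.11, 4.15, 4.15, 7.93 and 9.53.

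The week-12 means were 10.86 ± 0.92 (SD, n = 4) and 5.97 ± 2.58 (SD, n = 5), and the difference of -5.18 (SE 1.10) had an adjusted p of 0.202. It passed without dog 7 (-5.86, adjusted p = 0.0176) and without the 2 week-8 arrays that go against their labels (-5.53, adjusted p = 0.0331). The only ad libitum array of week 12 with muscle transcripts was that of dog 7, which had the highest ASB2 value of the 5. The other 2 ASB2 probe sets gave -3.79 and -4.69 (adjusted p = 0.202 and 0.386).

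ASB2 could be compared within batches that held both regimes at weeks 0, 8 and 12. At week 12, batch 2 held a control array at 11.44 and an ad libitum array at 4.15, and batch 4 held 11.39 and 4.15. At week 8 the ad libitum minus control differences were -2.68, 0.11, -1.48 and -0.85 in batches 1, 3, 4 and 5. Without the 2 arrays that go against their labels, batch 3 gave -1.31 and batch 5 no pair. ASB2 was then lower in 5 of 5 pairs of weeks 8 and 12, against 5 of 6 with those 2 arrays. Dogs recur among the pairs, such as control dog 3 in batch 4 at both weeks, so the pairs are not independent. At week 0 the differences were 0.55, -1.39 and 1.12 in batches 1, 2 and 4. Values of 4.11 to 4.15 occurred on 4 arrays, and the next lowest was 5.14, so values there may lie at the floor of the probe set. At week 0 the regimes stood at 11.30 ± 0.61 (SD, n = 4) and 11.04 ± 0.86 (SD, n = 5). All 4 later values were below that of week 0 in 4 of the 5 ad libitum dogs and in 2 of the 4 control dogs. In ad libitum dog 5 only the value of week 8 was above it, on the array that was closest to dog 9.

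At week 8 the ad libitum values of ASB2 were 8.25, 9.33, 9.41, 9.48 and 12.18, the last on the array labelled dog 5, and the control values ran from 10.33 to 10.93. At week 24 they were 4.14, 5.61, 7.51, 8.18 and 9.18 against 7.75, 8.72, 9.60 and 9.61, a difference of -2.0 (SE 1.01, adjusted p = 0.234). It was -1.30 without dog 5 and -3.21 (adjusted p = 0.306) without the arrays with muscle. The regimes overlapped at both weeks, at week 8 only through the value of 12.18. Without the 2 arrays that go against their labels they did not overlap at week 8. Ad libitum values then ran from 8.25 to 9.48 and control values from 10.65 to 10.93. On the 34 arrays without muscle ASB2 moved against SCD, a fatty acid desaturase (r = -0.63, rho = -0.73), and against the fat hormone LEP (r = -0.48, rho = -0.63). It moved with PLIN1, a lipid droplet coat protein (r = 0.63, rho = 0.49), with the brightest ATP2A1 probe set (r = 0.63, rho = 0.60) and with ADIPOQ (r = 0.44, rho = 0.27). These correlations are over arrays that share dogs and weeks and are given as a description.

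**Figure D4:**
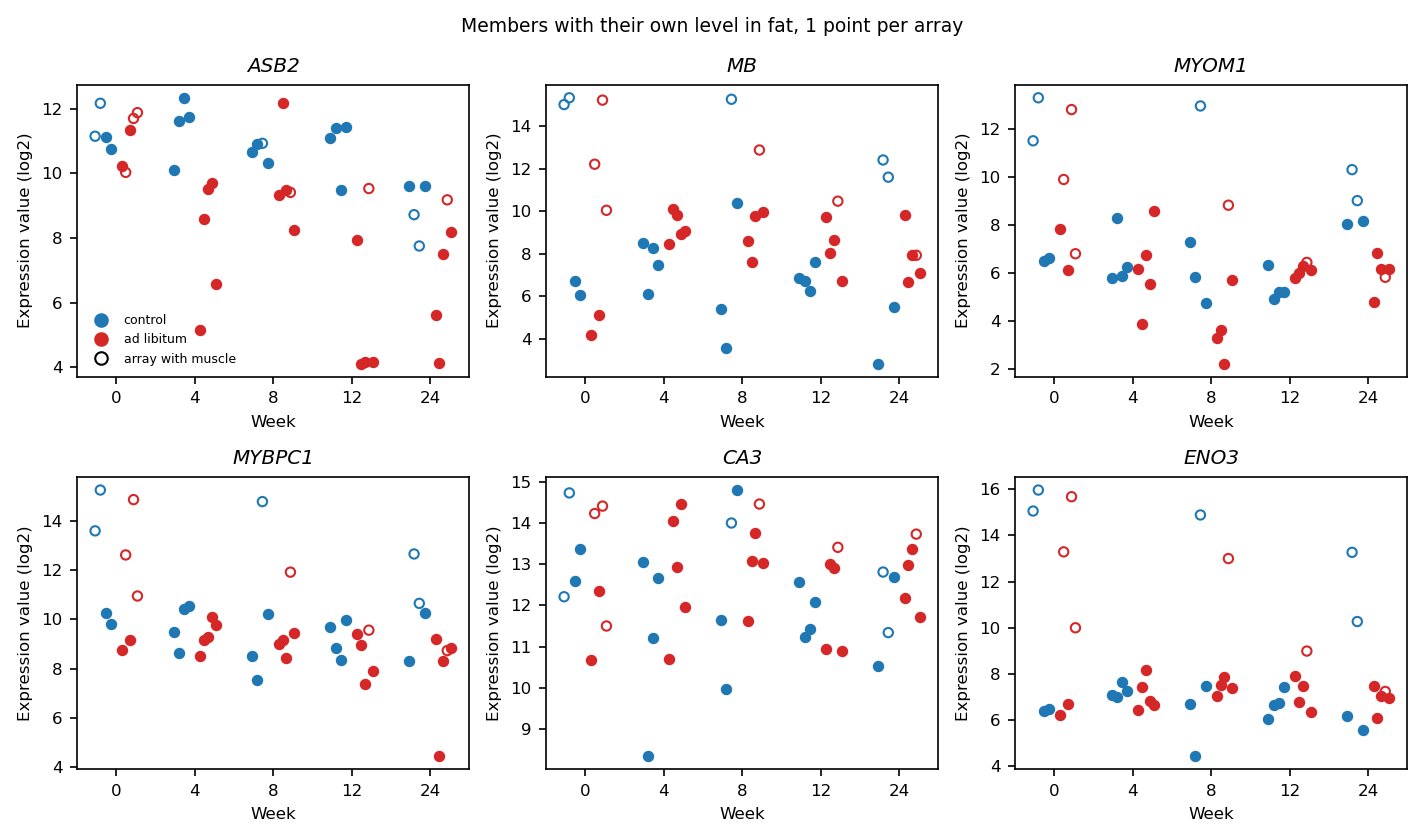
Expression values (log2, vertical axes) of 6 members that fat expresses, by week (horizontal axes), with control arrays in blue, ad libitum arrays in red and open circles for the 11 arrays with muscle transcripts. ASB2 is lower in the ad libitum dogs at week 4 (5.14 to 9.71 against 10.10 to 12.34), and the open circles of MB, MYBPC1 and ENO3 lie above all filled ones at week 0.

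The MB comparison at week 24 turned with the arrays that had muscle transcripts. At week 24 the control dogs stood at 2.83, 5.51, 11.61 and 12.42, the last 2 on arrays with muscle, and the ad libitum dogs at 6.66, 7.09, 7.93, 7.93 and 9.84. The difference was -0.20 (adjusted p = 0.969) over all arrays and 3.84 (adjusted p = 0.111) without the arrays with muscle, which left 2 control and 4 ad libitum arrays. It was also positive without dog 3 (1.24), dog 4 (0.97) or dog 5 (0.11). At week 4 no array passed the rule for muscle transcripts. Control values there were 6.11, 7.47, 8.25 and 8.53 and ad libitum values 8.47, 8.94, 9.09, 9.82 and 10.10. The highest of each regime, 8.53 in control dog 1 and 10.10 in ad libitum dog 5, were on arrays with traces of muscle transcripts. So was the 7.47 of control dog 9. These regimes shared no batch and separated in the actin end difference, as given for ASB2, and the part of either in MB was not tested. On the 34 arrays MB moved with LEP (r = 0.74, rho = 0.76, n = 34), as a description over arrays of the same dogs.

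MYOM1, an M-band protein, and MYBPC1, the slow-fibre myosin-binding protein C, had the smallest p of the members at week 24 without passing. MYOM1 stood at 8.01, 8.17, 9.00 and 10.29 in the controls and at 4.78, 5.81, 6.14, 6.16 and 6.83 in the ad libitum dogs, without overlap. The difference of -2.92 (SE 1.20) had an adjusted p of 0.140. Of the control values the 2 highest were on arrays with muscle, and without such arrays the difference was -2.14 (adjusted p = 0.351). MYBPC1 differed by -2.56 (adjusted p = 0.176), with means of 10.47 ± 1.78 (SD, n = 4) in control and 7.91 ± 1.96 (SD, n = 5) in ad libitum dogs. It was -1.47 (adjusted p = 0.547) without the arrays with muscle, among them those of control dogs 3 and 4, and -1.70 without dog 5. At week 8, MYOM1 had the smallest p, with -2.92 (adjusted p = 0.137) over all arrays and -2.77 (adjusted p = 0.0503) without those with muscle. NEB and TTN followed at week 8, at unadjusted p above 0.05.

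CA3 and ENO3, with their own level in fat, showed no feeding difference past the threshold. On the 34 arrays CA3 varied with an SD of 1.34 around a median of 12.46, and ENO3 with an SD of 0.733 around 6.89. At week 24 CA3 differed by 0.95 (adjusted p = 0.578). ENO3 differed by -1.86 (adjusted p = 0.569) over all arrays and by 1.08 (adjusted p = 0.358) without those with muscle, where 2 control arrays remained.

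Compared with week 0 over both regimes, 12 of the 83 member probe sets fell at week 4 and 0 rose, where 3.52% of all probe sets passed and 0.762% fell. They belonged to 9 genes: ATP2A1, COX6A2, PGAM2, ACTN3, TNNI2, TNNT3, MYOZ1, TRDN and MYH1. At week 0, 5 of 9 arrays passed the rule for muscle transcripts and at week 4 none did. All 12 probe sets passed the filter only through arrays with muscle. The calls thus restate how the arrays with muscle fall over the weeks and are a description. PGAM2 differed by -4.54 (SE 1.26), MYOZ1 by -5.25 and ACTN3 by -5.35, the latter 2 at a probe set that is not their brightest. Without the 11 arrays, none of the 12 was among the 15 member probe sets that could be tested. Of those 15, 2 passed, both of MB and both higher, where 9.24% of all probe sets passed and 3.17% were higher. Leaving out dog 1, 4 or 8 gave 20, 27 or 67 calls, and leaving out dog 2, 3, 5, 6, 7 or 9 gave 0. The count was 4 without the 2 week-8 arrays that go against their labels, and 0 with no batch term or when the actin end difference entered as a covariate. The shares of all probe sets called in these alternative fits are not given, so their counts are a description.

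Fibre genes outside the list, most of which did not pass, are given as a description too. Of 8 slow-fibre genes that are not members, 4 fell and 0 rose at week 4: TNNT1 by 5.63, MYL2 by 5.93, MYL3 by 5.21 and ATP2A2, the calcium pump of slow fibres and many other cells, by 2.03. Of 32 further fibre genes tested, 1 fell, MYBPC2, by 4.64, and 0 rose. Of 12 adipocyte genes 1 rose, LEP, by 2.03 (adjusted p = 0.0262).

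At week 8, 0 members passed against week 0, where 0.176% of all probe sets did. An unadjusted p under 0.05 was found for 1 (MYOM1, -2.49, adjusted p = 0.213), against 14.5% of all. MYH1 and MYBPC1 had the next smallest p, at -3.61 and -1.66. Without the arrays with muscle 0 of 15 passed, where 1.89% of all did. Of the 15, 4 had an unadjusted p under 0.05, against 20.7% of all. At week 12, 5 of 83 fell, where 4.03% of all passed and 1.16% fell, and they were the 3 probe sets of ASB2 and the 2 of MYOM1. ASB2 fell by 2.73 (adjusted p = 0.0302) and MYOM1 by 3.20 (adjusted p = 0.0324). Leaving out dog 1, 2, 4, 7 or 8 gave 20, 10, 38, 3 or 51 calls, and leaving out dog 3, 5, 6 or 9 gave 0. The shares of all probe sets called with a dog left out are not given, so these counts are a description. The brightest ASB2 probe set also failed without dog 4 (adjusted p = 0.0594) and that of MYOM1 without dog 7 (adjusted p = 0.0858). Without the arrays with muscle, ASB2 fell short at -2.88 (adjusted p = 0.0751), MYOM1 too at -1.36 (adjusted p = 0.206), and 1 member probe set passed, of MB and higher by 2.66 (adjusted p = 0.0489), where 1.96% of all passed and 0.688% were higher.

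At week 24, 4 of 83 fell, where 17.9% of all probe sets passed and 9.65% fell, both larger shares than the 4.82% of the members. They were the 3 ASB2 probe sets and MYBPC1. ASB2 fell by 3.31 (SE 0.724, adjusted p = 0.00212) and MYBPC1 by 2.45 (adjusted p = 0.0357). All week-24 arrays formed batch 6, so week 24 and its batch cannot be told apart. The actin end difference was 3.51 ± 0.91 (SD, n = 5) and 4.79 ± 1.20 (SD, n = 4) at week 24, against 2.85 ± 1.00 and 2.89 ± 1.16 at week 0, in ad libitum and control dogs. With it as a covariate 0 members passed. Without the arrays with muscle 0 did, where 0.407% of all probe sets passed. In that fit 4 of 15 member probe sets had an unadjusted p under 0.05, against 12.7% of all. ASB2 then differed by -2.87 (adjusted p = 0.128) with the covariate and by -2.90 (adjusted p = 0.186) without the arrays with muscle, and MYBPC1 by -1.66 (adjusted p = 0.494) and -1.02 (adjusted p = 0.631). Leaving out dog 2 or 4 gave 7 or 32 calls. Shares of all probe sets called with the covariate or with a dog left out are not given, so those counts are a description. MYBPC1 alone failed without dog 1, 3, 5, 7, 8 or 9, with adjusted p from 0.0569 to 0.197.

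MB was the only member that rose against week 0, and only once the arrays with muscle were left out. Week 0 then kept 4 arrays, with MB at 6.05 and 6.73 in control dogs 9 and 4 and at 4.19 and 5.12 in ad libitum dogs 2 and 6. At week 4 all 9 arrays lay between 6.11 and 10.10, and those of control dogs 1 and 9 and ad libitum dog 5 had traces of muscle transcripts. The rise of 3.45 at week 4 had an adjusted p of 0.0175, and the second MB probe set rose by 2.94 (adjusted p = 0.0248). The week-0 arrays of ad libitum dogs 2 and 6 were both of batch 2, with actin end differences of 3.67 and 3.83. Those of control dogs 9 and 4 had 1.73 and 2.18. At week 4 the ad libitum arrays had 1.40 to 2.04 and the control arrays 2.76 to 3.39. The part of RNA quality in the rise of MB was not tested. LEP in these 4 dogs went from week 0 to week 4 as 9.43 to 9.16 (dog 9), 10.54 to 9.73 (dog 4), 7.72 to 11.92 (dog 2) and 8.70 to 12.23 (dog 6), higher in the 2 ad libitum dogs and lower in the 2 control dogs.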

How the data were processed

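The authors deposited 1 expression value per probe set and array, made with GCRMA per the submitters' processing notes, which give no version, and read here as log2 from its range. Neither the log base nor any batch correction is stated there. The table held 43035 probe sets, of which 111 array controls were left out. Symbols came from the platform annotation, and 30 of the 34 member genes had the same symbol and identifier in RefSeq's table (assembly UU_Cfam_GSD). Arrays carry no count of molecules, so their number limits the precision.

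Probe sets above log2 4 on at least 4 of 45 arrays (22690) were fitted with limma 3.58.1 (R 4.3.3, statmod 1.5.0), using 10 means (regime by week), a term for batches 1 to 5, and the dog as a block with a common correlation of 0.00562. The dog is the animal id in the labels, which pairs the weeks. Adjusted p-values are limma's after Benjamini-Hochberg over all probe sets tested, with a threshold of 0.05, and the script was tested on simulated data. Other values used Python 3.11.15. Classes of arrays and genes were set by the values and were not tested. Genes named are the members, the 15 closest non-members, list genes and the 3 members with the smallest p per comparison. The members and lists were chosen with earlier results of these data known. Sequences are not used here.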

Additional observations from a re-analysis of the deposited data

Results flagged for a closer look

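The spread within groups was checked for the mean of TNNI2, TNNC2 and MYL1 and for 6 members that fat expresses, in 10 groups each. In 9 of the 70 groups 1 array lay far from the others of its group, by a ratio that chance exceeds in about 1 of 20 groups. TNNI2, TNNC2 and MYL1 chose the arrays with muscle transcripts, and the groups share dogs. The count of 9 is thus a description and cannot be set against that rate.

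For the mean of the 3 fast-fibre genes, ad libitum dog 7 stood at 14.26 at week 8, 10.26 at week 12 and 7.29 at week 24, where the other dogs of its group lay between 2.17 and 2.45. Control dog 4 stood at 15.68 at week 8, against 2.25 to 2.29. Ad libitum dog 5 at week 4 stood at 3.25, against 2.21 to 2.46, and that array is among the 3 with traces of muscle transcripts.

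ENO3 of ad libitum dog 7 at week 8 was 13.0, against 7.04 to 7.85, and MYBPC1 on that array was 11.92, against 8.44 to 9.44. MYBPC1 of ad libitum dog 5 at week 24 was 4.45, the lowest of all arrays, against 8.32 to 9.20, and that array had no muscle transcripts. ASB2 of control dog 4 at week 12 was 9.49, against 11.11 to 11.44.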

How the results depend on the processing

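The number of arrays with muscle transcripts was within 1.5 times of 11 under all 4 alternatives. The number of genes that fat expresses was 17 with a median above log2 3 in place of 4, and within 1.5 times of 11 under the other 5.

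Counts of members called by feeding were 0 under all alternatives but these: 3 at week 4 with no batch term, 2 at week 12 without the 2 week-8 arrays that go against their labels, and 0 to 1 at week 8 and 0 to 2 at week 12 with each dog left out. ASB2 at week 4 then had an adjusted p of 0.04998 with no batch term.

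Against week 0, counts ran from 0 to 67 at week 4 (12 reported), 0 to 51 at week 12 (5) and 3 to 32 at week 24 (4) with each dog left out. At week 4 they were 2 without the arrays with muscle, 4 without the 2 week-8 arrays, and 0 with no batch term, with no filter or with the actin covariate. At week 12 they were 1, 0, 9, 1 and 8 without the arrays with muscle, with no filter, with quantile normalization, with the actin covariate and with a trended, robust fit. At week 24 they were 0 without the arrays with muscle, 7 with no batch term and 0 with the actin covariate. Where the cause is not the smaller set of arrays or probe sets, it was not tested. Save for the fit without the arrays with muscle, the share of all probe sets called is not given, so these counts are a description. With no replicate block, all 10 counts were within 1.5 times of those reported: 0 for feeding at each week, and 12 and 5 and 4 at weeks 4, 12 and 24.

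The difference in MB at week 24 changed sign, from -0.20 to 3.84 without the arrays with muscle, and ran from -1.96 to 1.24 with each dog left out.

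The number of arrays limits what can be seen, since values near a probe set's background have no order.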

Other observations

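The control dog 4 array of week 8 differed from the other 10 arrays with muscle transcripts in genes outside the list, named here after their values were seen. CHRNA1 and CHRNG, subunits of the muscle acetylcholine receptor of which CHRNG is typical of fetal or denervated muscle, stood at 9.39 and 8.73 there. On all other arrays CHRNA1 ran from 1.91 to 2.05 and CHRNG from 1.83 to 1.90. MYBPH, a myosin-binding protein, was at 8.57, against at most 3.94 elsewhere.

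ANKRD1, a stress-response protein of the sarcomere, was at 12.69 on that array and at most 7.11 on the others. TNNT2, the cardiac and embryonic troponin T, was at 11.83, against 8.41 or less, and MYL4, an atrial and embryonic light chain, at 8.53, against 5.30 or less. MYOD1 stood at 3.62 and MYOG at 2.90, both below log2 4 but above all other arrays. NCAM1, another gene of immature fibres, was not raised (4.70). MYH3, the embryonic heavy chain, did not set the array apart, since it was at 13.78 there and at 14.40 in control dog 3 at week 0. The TNNI2 value of this array, 15.55, was like that of the 3 other brightest arrays. It is 1 array of 1 dog, and whether these genes come from its muscle was not tested.

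Control dog 3 had muscle transcripts at weeks 0 and 24, with TNNI2 at 15.50 and 15.19. MYL2 was at 15.73 in the first and 2.21 in the second, and TNNT1 at 15.29 and 2.43, so the slow-fibre genes differed between samples of 1 dog.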
